A study of Mus musculus with 10 samples.

Results

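The mouse HSP70, HSP90 and HSP40 chaperone families were followed through 10 of their genes in the striatum of BACHD mice given SPI-24 or its DMSO vehicle. The deposited table holds 21230 genes. The 10 were chosen by name as chaperones that act on misfolded protein, except that Hspa8 (the constitutive HSP70, also called Hsc70) was chosen by its higher level in SPI-24 libraries. The set holds the HSP70 proteins Hspa8, Hspa1b, Hspa5 and Hspa9, the HSP110 proteins Hspa4, Hspa4l and Hsph1, the HSP90 proteins Hsp90aa1 and Hsp90ab1, and the J protein Dnajb1. No HSP90 cochaperone is in the set, and those were taken up through a separate list. The genes and the lists were chosen with earlier results of these data known.

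HSP70 proteins bind exposed hydrophobic stretches of unfolded proteins in a cycle driven by ATP. J proteins (the HSP40 family) bring the substrate and start hydrolysis, and nucleotide exchange factors, the HSP110 proteins among them, release ADP and let the substrate go. HSP90 receives partly folded clients from HSP70 through adaptor cochaperones, and stressed cells raise many of these genes through the heat shock factor HSF1. In neurons, HSC70 also uncoats clathrin vesicles at synapses, and HSP70 together with HSP110 and J proteins can take apart protein aggregates, which makes these genes of interest where huntingtin carries a long polyglutamine stretch.

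Both groups were BACHD mice, which are FVB/N mice heterozygous for a full-length human mutant HTT gene on a bacterial artificial chromosome, in addition to their own Htt genes. SPI-24 is an analog of a small molecule from a screen against the binding of the elongation factor Spt5 to RNA polymerase II. The study picked SPI-24 among analogs for lowering mutant Htt mRNA in striatal cells at low concentration and for its stability. The SPI-24 mice and the DMSO mice, 5 in each group, were about 3 months old at the start. They received SPI-24 or vehicle for 8 weeks from osmotic pumps under the skin. The vehicle, called DMSO here, was DMSO mixed with PEG400. For this pump treatment the paper reported little SPI-24 left in the brain and no detectable change of Htt protein. The libraries are labelled as biological replicates, and the series holds no wild-type and no untreated mice. The study used mice of both sexes, and the labels do not give the sex of each mouse.

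Depth ranged from 7.38 to 29.6 M recovered reads in SPI-24 libraries and from 5.48 to 46.9 M in DMSO libraries, and SPI-24 2 and DMSO 3 lay under 10 M. The libraries also differed in what tissue they held. A list of medium spiny neuron markers, the defining neurons of the striatum, summed to between 3610 and 100430 normalized counts in SPI-24 libraries and to between 4389 and 92431 in DMSO libraries. It lay above its mean in SPI-24 2, SPI-24 5, DMSO 1 and DMSO 4 and below it in the other 6 libraries, where the dopamine receptor gene Drd1 had at most 78.8 normalized counts and, in DMSO 3, none. Drd1 had at least 537 in the other 4 libraries. Thalamic neuron markers summed to between 8549 and 36844 normalized counts in SPI-24 libraries and to between 2406 and 39087 in DMSO libraries. The defining striatal markers were thus scarce in 6 libraries labelled as striatum, and their part in the results below was not tested except where a value is given. In such bulk tissue, fewer cells of a type and less RNA per cell cannot be told apart. No gene of the 15871 tested passed an adjusted p of 0.05 (0% called, limma with Benjamini-Hochberg), while 354 genes had an unadjusted p under 0.05. Tests of recovered reads called 0 genes with edgeR, 0 with limma-voom and 5 with DESeq2, none of them among the 10.

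Hspa8 had 1417, 1187, 1022, 1311 and 1800.5 normalized counts (reads divided by the size factor of the library) in the SPI-24 libraries 1 to 5, against 848, 576, 807, 1073 and 754 in the DMSO libraries 1 to 5. SPI-24 5 was the highest library and DMSO 2 the lowest. All DMSO values were exceeded by 4 of the 5 SPI-24 libraries, and SPI-24 3 lay below DMSO 4. The means were 1347 ± 293 in SPI-24 and 811 ± 179 in DMSO (SD, n = 5 each), a ratio of 1.66. The log2 fold change was 0.73. Since Hspa8 was selected on this difference, the values are a description, with no interval and no test. Its counts rested on 236 to 2232 reads per library.

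The Hspa8 difference was set beside the tissue and the sex of the libraries. The highest medium spiny marker levels stood in SPI-24 5 and DMSO 1, at 3.42 and 3.15 above the mean of all libraries on the log2 scale, and these libraries had 1800.5 and 848 normalized counts of Hspa8. The medium spiny list was balanced between the groups, with a mean deviation of −0.01 in SPI-24 and 0.01 in DMSO. Other lists were not. The mean deviation was 0.44 in SPI-24 and −0.44 in DMSO for thalamic neuron markers, of which 6 of 7 were higher in SPI-24, and 0.35 in SPI-24 and −0.35 in DMSO for cortical neuron markers. It was −0.39 in SPI-24 and 0.39 in DMSO for choroid plexus markers and −0.63 in SPI-24 and 0.63 in DMSO for ependymal markers. All 6 oligodendrocyte markers were higher in SPI-24, with a mean deviation of 0.08 in SPI-24 and −0.08 in DMSO, and their sum was highest in SPI-24 5, the highest Hspa8 library. Endothelial markers lay between 0.61 and 0.71 in SPI-24 1 to 4 and at −2.14 in SPI-24 5, against −0.36 to 0.10 in the DMSO libraries. The part of these cell types in the Hspa8 difference was not tested. Ddx3y, a gene of the Y chromosome, was at or near 0 in SPI-24 1, 2 and 5 and in DMSO 1 and 4. Among the libraries with Ddx3y reads, 2 from SPI-24 and 3 from DMSO, the difference in mean log2 level of Hspa8 was 0.71. Among those without, 3 from SPI-24 and 2 from DMSO, it was 0.60. Both values come from the libraries on which Hspa8 was chosen, so they are a description only. The part of sex in the Hspa8 difference was not tested.

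**Figure D1:**
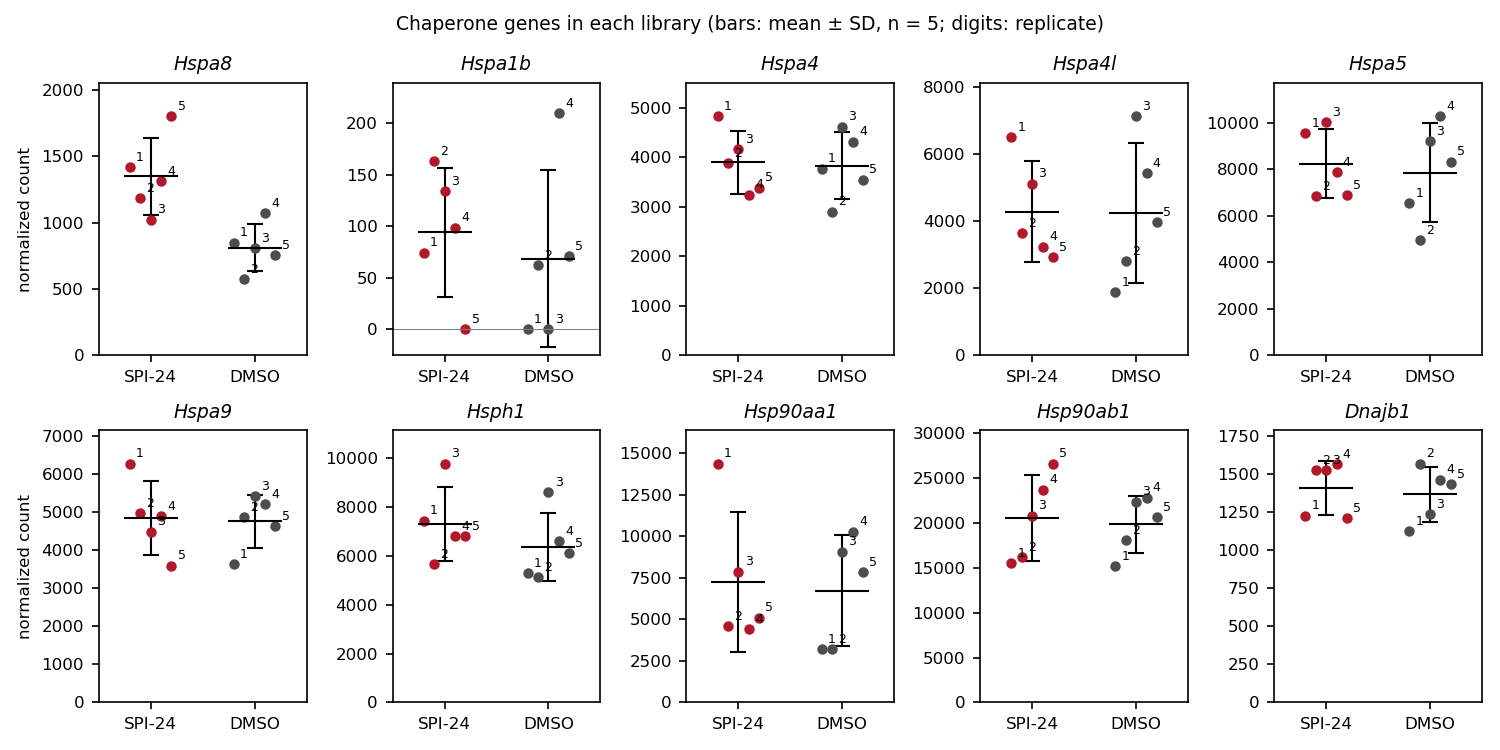
Normalized count (vertical axis, linear) of each of the 10 chaperone genes in each library, SPI-24 left and DMSO right, with the replicate number beside each point and the mean ± SD (n = 5) as bars. Hspa8 shows 4 SPI-24 points above all DMSO points, while the points of the other 9 genes overlap broadly between the groups.

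How much of the Hspa8 transcript is also found in other genes was measured on the GENCODE M21 transcripts. Hspa8 lies at chr9:40800984-40810087 on the plus strand of GRCm38. Of the 2345 windows of 50 bases in its main transcript, 1755 (74.8%) also occur in transcripts of 13 other genes, most of them processed pseudogenes, which are copies of the mRNA set back into the genome. Reads of that length from such windows can match more than 1 place, and the authors discarded multi-mapped reads before counting. In the coding part 90.7% of the windows were shared. A pair of coding windows is shown in lower case, the first an example of sequence held by many copies and the second of sequence that no other annotated transcript holds.
Hspa8 transcript bases 2116 to 2165, across an exon junction between chr9:40804686 and 40804971, held by 10 other genes: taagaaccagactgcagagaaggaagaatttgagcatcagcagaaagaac
Hspa8 transcript bases 460 to 509, chr9:40802012-40802061, held by no other gene: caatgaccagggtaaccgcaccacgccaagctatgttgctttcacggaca

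Copies of Hspa8 have values of their own in the table. Gm15459, a processed pseudogene on chromosome 5 that shares 70.0% of the Hspa8 windows, had 441, 412, 565, 531 and 921 normalized counts in the SPI-24 libraries, against 337, 345, 533, 472 and 435 in the DMSO libraries. SPI-24 5 was the highest library for Gm15459 as for Hspa8, and the groups overlapped, with a log2 fold change of 0.40 (95% interval −0.22 to 1.01, adjusted p = 0.999, limma). The other 9 copies in the table summed to at most 139 normalized counts in any library. Hspa8 and its 10 copies together had 1975 ± 483 normalized counts in SPI-24 and 1290.1 ± 267 in DMSO, a log2 fold change of 0.61. This sum was added after the values had been seen. How many reads of Gm15459 came from Hspa8 was not tested.

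**Figure D2:**
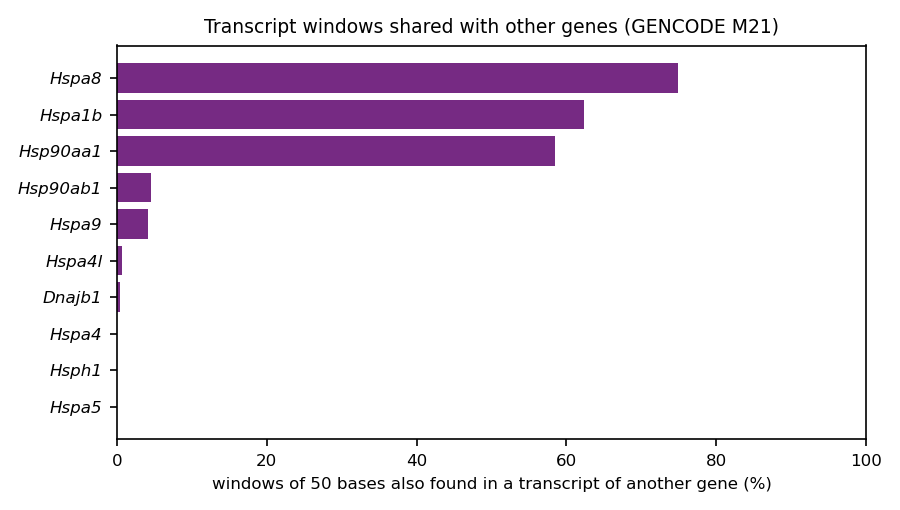
Percentage of the 50-base windows of a transcript of each of the 10 chaperone genes that also occur in a transcript of another gene (horizontal axis, 0 to 100%). Hspa8, Hspa1b and Hsp90aa1 stand at 74.8%, 62.3% and 58.5%, and the other 7 genes lie at or below 4.49%.

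Hspa1b, the stress-inducible HSP70, was the least expressed of the set. It lies at chr17:34956436-34959238 on the minus strand. It had 74.6, 163, 134, 98.7 and 0 normalized counts in the SPI-24 libraries, against 0, 62.4, 0, 210 and 71.2 in the DMSO libraries. No reads were found in SPI-24 5, DMSO 1 and DMSO 3, and 3 reads, the limit that a count of 0 allows, would be 6.21, 3.57 and 10.3 normalized counts there. The highest library was DMSO 4, so the groups overlapped from end to end. The means were 94.1 ± 62.5 in SPI-24 and 68.6 ± 85.6 in DMSO (SD, n = 5 each), and the log2 fold change of 1.49 had an interval of −2.54 to 5.51 (adjusted p = 0.999, limma), which excludes neither a large rise nor a large fall. It was 0.42 in edgeR and 0.02 without the 2 libraries under 10 M reads.

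Hspa1b shares 62.3% of its windows with its near-identical neighbour Hspa1a, so the division of reads between them is uncertain. Hspa1a had 34.7, 0, 86.8, 61.1 and 70.4 normalized counts in the SPI-24 libraries, against 1.19, 25.6, 167, 36.5 and 28.7 in the DMSO libraries. Summed, the copies had 145 ± 57.3 normalized counts in SPI-24 and 121 ± 91.8 in DMSO, a log2 fold change of 1.16 (95% interval −1.26 to 3.59). The inducible HSP70 genes were thus low in both groups, and the spread between libraries was larger than the difference between groups.

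Promoter windows of RefSeq genes (GRCm38.p6, 250 bases before to 50 after the start) were found for 6 of the 10 genes, Hspa5, Hspa4l, Hsph1, Dnajb1, Hspa4 and Hspa1b. They were searched on both strands for heat shock elements, the sites bound by HSF1, written as neighbouring inverted units GAANNTTC or TTCNNGAA. At least 1 such pair occurs in 15.1% of the 32851 promoter windows of all genes, and 3 overlapping alternating units (GAANNTTCNNGAA or TTCNNGAANNTTC) occur in 0.603%. The windows of Hsph1 and of Hspa1b held a match and those of the other 4 genes held none. Dnajb1 and Hspa4l, which held no match, are also among the genes taken as HSF1-responsive below. The matches of Hsph1 and Hspa1b are shown because these are known HSF1 targets, with the units and the bases between them in capitals.
Hsph1, chr5:149636282-149636306, minus strand, 3 units: tgcagaTTCTGGAAAGTTCtcctca
Hspa1b, chr17:34959329-34959348, minus strand, 1 pair: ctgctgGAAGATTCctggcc
The Hsph1 run began 15 bases after the start of that window's transcript. The Hspa1b pair began 104 bases before the start, and Hspa1a holds the same run at the same distance. A match is a description of letters and not of binding.

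The HSP110 proteins, which exchange the nucleotide of HSP70, were measured at high counts and their groups overlapped. Hspa4, at chr11:53259814-53300457 on the minus strand, had 4821, 3885, 4155, 3242 and 3384 normalized counts in the SPI-24 libraries, against 3767, 2897, 4614, 4313 and 3547 in the DMSO libraries. Its highest library was SPI-24 1 and its lowest DMSO 2, only 1.66-fold apart. Its log2 fold change was 0.03 (95% interval −0.33 to 0.39), so a 2-fold change in either direction lay outside the interval.

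Hspa4l, a paralog of Hspa4 at chr3:40744495-40796103 on the plus strand, varied far more. It had 6516, 3636, 5126, 3241 and 2922 normalized counts in the SPI-24 libraries, against 1876, 2804, 7133, 5430 and 3973 in the DMSO libraries. DMSO 3 was 3.80-fold above DMSO 1, and the DMSO libraries spanned the whole range of the SPI-24 libraries. The means were 4288 ± 1505 in SPI-24 and 4243 ± 2092 in DMSO, with a log2 fold change of 0.10 (95% interval −0.59 to 0.79).

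Hsph1, also called HSP105, lies at chr5:149614287-149636376 on the minus strand and is the gene with the 3 units above. It had 7441, 5661, 9767, 6796 and 6811 normalized counts in the SPI-24 libraries, against 5287, 5136, 8617, 6603 and 6120 in the DMSO libraries. SPI-24 3 was the highest library and DMSO 1 and 2 the lowest, with the rest between. The means were 7295 ± 1523 in SPI-24 and 6353 ± 1402 in DMSO. The log2 fold change of 0.20 (95% interval −0.20 to 0.60) was the largest of the set after Hspa1b and Hspa8, with an unadjusted p of 0.295 and an adjusted p of 0.999 in limma. It was 0.09 without SPI-24 replicate 3, 0.13 without DMSO replicate 2 and 0.40 without the 2 libraries under 10 M reads, where the unadjusted p was 0.0485 and the adjusted p 0.963.

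The HSP70 proteins of the organelles showed no difference beyond the spread of the libraries. Hspa5 encodes BiP, the HSP70 of the endoplasmic reticulum and a target of the unfolded protein response, at chr2:34771970-34777547 on the plus strand. It had 9573, 6837, 10040.1, 7886 and 6894 normalized counts in the SPI-24 libraries, against 6538, 4949, 9208, 10286 and 8339 in the DMSO libraries. The lowest libraries were DMSO 1 and 2 and the highest DMSO 4, so DMSO libraries stood at both ends. The log2 fold change was 0.10 (95% interval −0.35 to 0.54).

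Hspa9 encodes mortalin, the HSP70 of mitochondria, which pulls imported proteins into the matrix. It had 6275, 4983, 4489, 4896 and 3595 normalized counts in the SPI-24 libraries, against 3641, 4869, 5431, 5212 and 4636 in the DMSO libraries. SPI-24 1 was the highest library and SPI-24 5 the lowest. Its log2 fold change of 0.02 (95% interval −0.35 to 0.39) was the smallest of the 10 genes.

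The HSP90 genes differed from each other in how steady they were. Hsp90aa1 encodes HSP90 alpha, the more stress-inducible form, at chr12:110690605-110702728 on the minus strand. It had 14385, 4601, 7882, 4411 and 5112 normalized counts in the SPI-24 libraries, against 3194, 3191, 9081, 10285 and 7868 in the DMSO libraries. SPI-24 1 stood far above the other SPI-24 libraries and 4.51-fold above DMSO 2. That range was wider than that of 89.1% of the 6272 genes whose mean was 500 or more. The means were 7278 ± 4212 in SPI-24 and 6724 ± 3335 in DMSO, and the log2 fold change of 0.13 had an interval of −0.69 to 0.95. Hsp90aa1 shares 58.5% of its windows with other genes, and the 3 processed pseudogenes that share most had means of at most 30.3 normalized counts in either group.

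Hsp90ab1 encodes the constitutive HSP90 beta, at chr17:45567775-45573271 on the minus strand, and was the most abundant of the set. It had 15562, 16174, 20833, 23741 and 26626 normalized counts in the SPI-24 libraries, against 15212, 18114, 22405, 22835 and 20699.7 in the DMSO libraries. SPI-24 4 and 5 exceeded all DMSO libraries, and DMSO 1 was below all SPI-24 libraries. The means of 20587 ± 4775 in SPI-24 and 19853 ± 3189 in DMSO differed by a log2 fold change of 0.04 (95% interval −0.41 to 0.48).

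Dnajb1, the stress-inducible J protein that starts the ATP cycle of cytosolic HSP70, lies at chr8:83608193-83612653 on the plus strand. It had 1226, 1527, 1525, 1567 and 1209 normalized counts in the SPI-24 libraries, against 1127, 1568, 1237, 1463 and 1435 in the DMSO libraries. The highest and the lowest library, DMSO 2 and DMSO 1, were 1.39-fold apart, a range narrower than in all but 1.85% of those genes. The log2 fold change was 0.05 (95% interval −0.31 to 0.40).

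Set side by side, all 9 genes other than Hspa8 had a log2 fold change above 0, where 50.2% of all genes tested did. Hspa8 is left out because its direction was fixed by the choice. The other 9 were also chosen with earlier results of these data known, and several moved together between libraries. They are therefore not independent observations, and nothing is read from their count. The count of 9 rested on single libraries, and it was 5 without SPI-24 replicate 1, 4 without DMSO replicate 1 and 5 without DMSO replicate 2. Apart from Hspa8 and Hspa1b the fold changes were small, from 0.02 to 0.20 on the log2 scale, and the median of the 9 genes other than Hspa8 was 0.10, beside 0.00 for all genes tested. None of the 10 passed an adjusted p of 0.05 in limma, edgeR, limma-voom or DESeq2, and all 9 genes other than Hspa8 had an adjusted p of 0.999 and an unadjusted p of at least 0.295 (limma). Hspa8 alone lay under an unadjusted p of 0.05, as did 2.23% of all genes, and nothing is read from that count because the gene was chosen by this contrast. None of the 10 had all SPI-24 libraries above all DMSO libraries, a separation seen in 0.195% of all genes. A 2-fold rise and a 2-fold fall were both outside the 95% interval for 8 of the 9 genes other than Hspa8, against 37.9% of all genes tested. These 8 genes had means of at least 1388 normalized counts, and spread between libraries was smaller at high counts. The median SD within groups was 0.72 on the log2 scale for all genes tested and 0.38 for those with a mean of at least 500. The share among genes of like level was not computed.

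**Figure D3:**
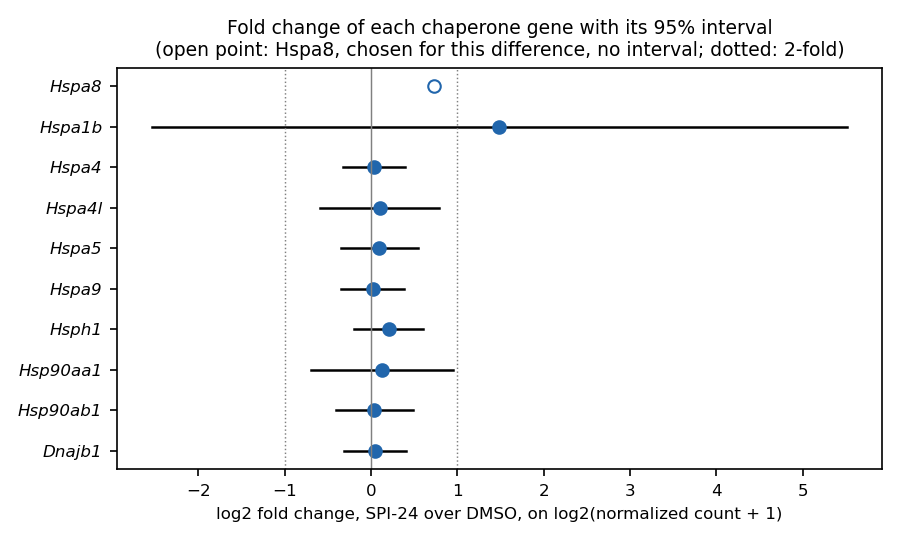
Log2 fold change of SPI-24 over DMSO (horizontal axis, on log2 of the normalized count plus 1) for each of the 10 chaperone genes, with 95% intervals for all but Hspa8 (open point), which was chosen for this difference. The intervals of the other 9 genes include 0, and those of all 9 but Hspa1b lie between the dotted lines of a 2-fold change.

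Levels per length of exon, in reads per kilobase and per M reads (RPKM), put the genes in order. Averaged over the 10 libraries, Hsp90ab1 had 353 RPKM, Hspa5 99.8, Hsp90aa1 93.7, Hspa9 58.4, Hsph1 49.2, Hspa4 36.4, Dnajb1 22.7, Hspa4l 19.0, Hspa8 13.0 and Hspa1b 1.53. Neighbours in this order overlapped by their mean ± SD within each group, except at 3 steps, Hsp90ab1 over Hspa5, Hspa4 over Dnajb1 and Hspa8 over Hspa1b. On this scale only Hspa1b was lower than Hspa8.

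That order changed when the length was limited to windows that no other gene shares. Per 1000 unshared windows and per M reads, Hsp90ab1 had 448, Hsp90aa1 275, Hspa5 117, Hsph1 95.2, Hspa8 94.6, Hspa9 87.5, Hspa4 44.1, Dnajb1 24.8, Hspa4l 23.9 and Hspa1b 4.14 as means of the 10 libraries. Hspa8 had 117 ± 21.2 in SPI-24 and 72.6 ± 15.3 in DMSO, which restates the difference on which it was chosen. Within each group its mean ± SD overlapped those of Hspa5, Hsph1 and Hspa9. By comparison Hspa5 had 118 ± 26.1 in SPI-24 and 115 ± 33.9 in DMSO, Hsph1 had 100.4 ± 24.9 in SPI-24 and 90.0 ± 22.0 in DMSO, and Hspa9 had 86.8 ± 19.1 in SPI-24 and 88.1 ± 16.5 in DMSO. The unit assumes that no read from a shared window was counted, which was not tested.

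Several of the genes moved together between libraries of both groups. Over the 10 libraries, which are the same for each pair and differ in depth and tissue, log2 levels of Hsp90aa1 correlated with those of Hspa4l (Pearson r = 0.91), Hspa5 (0.87) and Hspa4 (0.81). The value for Hspa4l was 0.91 with the group means removed and 0.94 without the 2 libraries farthest from the median of Hspa4l. Spearman's rho for that pair was 0.92. Hspa4l stood first, Hspa5 in place 8 and Hspa4 in place 43 of 11206 genes ordered by their correlation with Hsp90aa1, an ordering made after these values had been seen. The cochaperone Chordc1, which binds HSP90, stood in place 15 with r = 0.85.

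The libraries that carried this pattern came from both groups. Hsp90aa1 and Hspa4l were highest in SPI-24 1 and in DMSO 3 and 4, and Hsp90aa1 was lowest in DMSO 1 and 2, at 0.96 and 0.97 below its mean on the log2 scale. The medium spiny markers were low in SPI-24 1 and DMSO 3 but high in DMSO 4, and high in DMSO 1 but low in DMSO 2. Their part in the pattern was not tested.

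**Figure D4:**
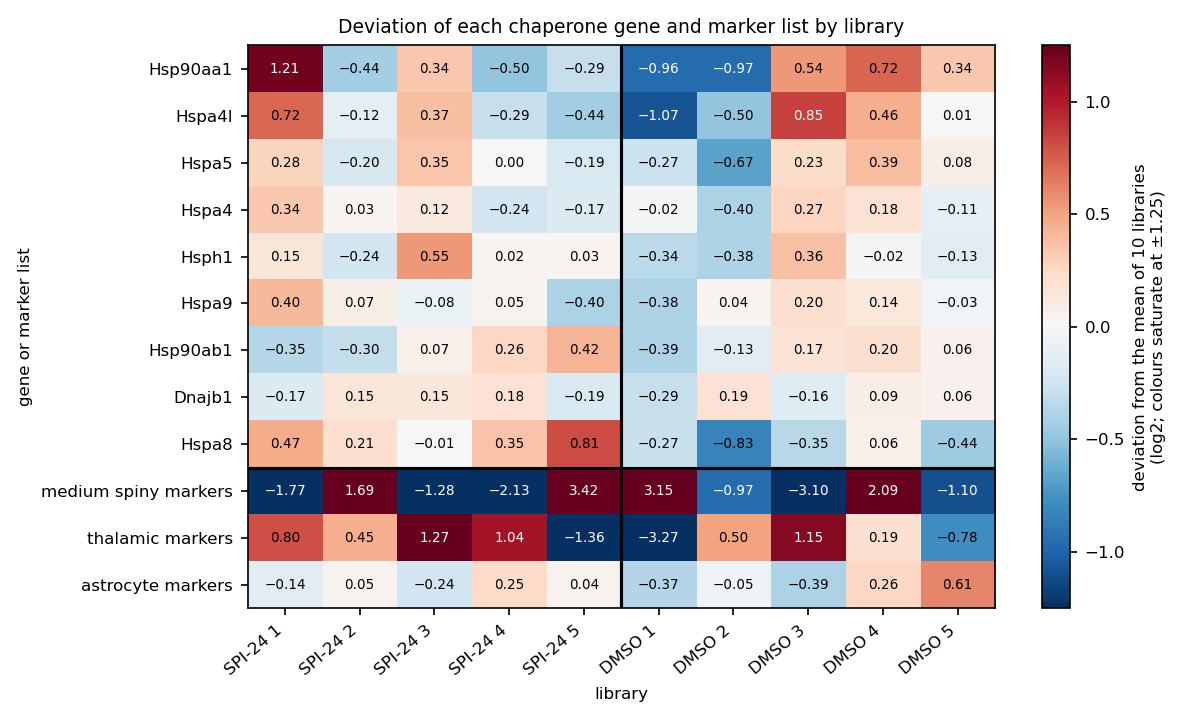
Deviation of each chaperone gene other than Hspa1b, and of 3 cell type marker lists, from its mean over the 10 libraries (log2, colour and printed values), with the SPI-24 libraries in the left columns and the DMSO libraries in the right. Hsp90aa1, Hspa4l and Hspa5 are low in DMSO 1 and 2 and high in SPI-24 1, DMSO 3 and DMSO 4. Hspa8, Hsp90ab1 and Dnajb1 do not follow that pattern.

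Hspa8 did not follow that pattern, and neither did Hsp90ab1 and Dnajb1. Correlations with Hsp90aa1 were 0.26 for Hspa8, 0.13 for Hsp90ab1 and −0.13 for Dnajb1. The correlation of Hspa8 with the other 9 genes ran from −0.22 for Dnajb1 to 0.32 for Hspa5. Ordered by correlation with Hspa8, Hspa5 stood only in place 1737 of the 11206 genes. These values include the group difference on which Hspa8 was chosen. With the group means removed, the correlations ran from −0.55 for Dnajb1 to 0.38 for Hsp90ab1, with 0.31 for Hsp90aa1. The genes most like Hspa8 over the 10 libraries were Usp48, a deubiquitinating enzyme (r = 0.87), Zdhhc14, a palmitoyltransferase (0.86), Mpp1 (0.86), Lgalsl (0.84) and Fgfr1op2 (0.81). Usp48 had 940.4 ± 100.4 normalized counts in SPI-24 and 753 ± 44.2 in DMSO, and Zdhhc14 had 613 ± 272 in SPI-24 and 299.8 ± 168 in DMSO. Being like Hspa8, which was chosen by its group difference, these genes also differ between the groups, and no test is given for them.

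The wider folding machinery was described through lists of genes outside the 10, of which 99 were tested and 2, Hspa1l and Hspb3, lay below the filter on low values. None passed an adjusted p of 0.05 in limma, edgeR, limma-voom or DESeq2. At an unadjusted p under 0.05 there were 0 in limma and edgeR, 1 in limma-voom and 2 in DESeq2. Their log2 fold changes were above 0 for 57 genes and below 0 for 42, with a median of 0.03 beside 0.00 for all genes. Median values by list ran from −0.41 for the 2 cold-inducible genes to 0.27 for the 7 other HSP70 genes.

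All 7 other HSP70 genes tested lay above 0, where 50.2% of all genes did, with the neuronal HSP70 relative Hspa12a at 3633 ± 923 normalized counts in SPI-24 and 2788 ± 1560 in DMSO (0.58, 95% interval −0.24 to 1.41). Hspa2 stood at 0.36 and Hspa14 at 0.27. The count of 7 above 0 was 4 without DMSO replicate 3, and 5 without SPI-24 replicate 1, 3 or 5. It was also 5 in limma-voom and 5 without the 2 libraries under 10 M reads. In edgeR it was 6, and in DESeq2 it was 6 of 8 tested. Of the 20 J proteins, 11 lay above and 9 below 0, with a median of 0.03. Dnaja2, a J protein that works with HSC70, had 4191 ± 355 normalized counts in SPI-24 and 3516 ± 493 in DMSO (0.26, 95% interval −0.05 to 0.57). Dnajc6 encodes auxilin, which recruits HSC70 to clathrin coats, and had 4758 ± 922 in SPI-24 and 3894 ± 1448 in DMSO (0.35, 95% interval −0.18 to 0.88).

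Among the nucleotide exchange factors, 7 of 10 lay above 0 with a median of 0.12. The lowest p in that list belonged to Bag3, which links HSP70 to autophagy and is a target of HSF1. Bag3 had 181 ± 80.5 normalized counts in SPI-24 and 276 ± 48.3 in DMSO (−0.75, 95% interval −1.78 to 0.27), and without SPI-24 replicate 2 its log2 fold change was −0.40. Its small heat shock partner Hspb8 had 440.1 ± 154 in SPI-24 and 685 ± 305 in DMSO (−0.60, 95% interval −1.44 to 0.24). The list of HSF1, its regulators and small heat shock proteins had 3 genes above and 6 below 0, with a median of −0.08.

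The HSP90 family and its cochaperones had 13 genes above and 9 below 0, with a median of 0.06. Stip1, also called HOP, the adaptor that passes clients between HSP70 and HSP90, had 5114 ± 428 normalized counts in SPI-24 and 4097 ± 747 in DMSO (0.34, 95% interval −0.0041 to 0.68, unadjusted p = 0.0525, adjusted p = 0.999, limma), and its log2 fold change was 0.22 without DMSO replicate 1. Tomm34, which binds HSP70 and HSP90 during mitochondrial import, had 946 ± 105 in SPI-24 and 689 ± 252 in DMSO (0.53, 95% interval −0.0037 to 1.06). Ahsa1, which speeds the ATPase of HSP90, had 3042 ± 329 in SPI-24 and 2580 ± 313 in DMSO (0.24, 95% interval −0.08 to 0.56).

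Chaperonins and prefoldin were split evenly, 8 above and 8 below 0, and mitochondrial folding genes stood at 5 above and 3 below. Hspe1, the cochaperonin of mitochondrial HSP60, is in both lists and had 463 ± 71.3 normalized counts in SPI-24 and 681 ± 214 in DMSO (−0.52, 95% interval −1.08 to 0.05). Of the 15 genes of endoplasmic reticulum folding 9 lay above 0, with a median of 0.02. The stress transcription factor Xbp1 stood at 0.29 and the BiP cochaperone Dnajb9 at 0.33, both with intervals that include 0.

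The 18 genes taken as HSF1-responsive, 7 of which belong to the set of 10, had 14 genes above and 4 below 0 and a median of 0.12. By comparison, 50.2% of all genes tested lay above 0. The 7 genes of the set all lay above 0 and were already counted, among them Hspa8, whose direction was fixed by its choice. Within this list Stip1 and Ahsa1 stood above 0 while Hspe1 and Bag3 stood below, and the only gene under an unadjusted p of 0.05 was Hspa8, which was chosen by this contrast.

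**Figure D5:**
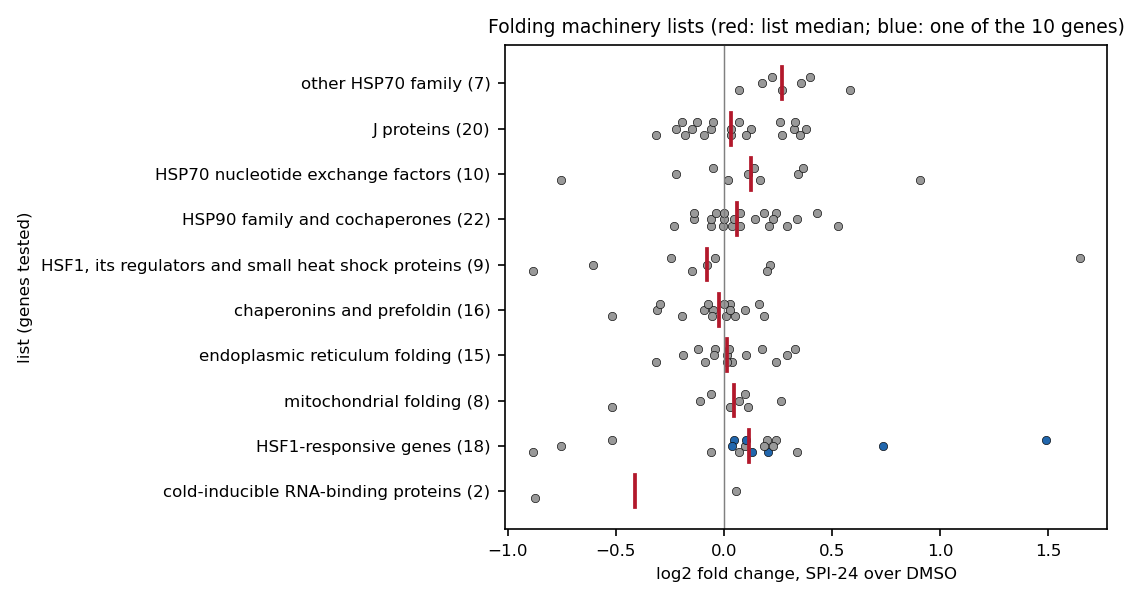
Log2 fold change of SPI-24 over DMSO (horizontal axis) of every tested gene in 10 lists of the folding machinery, with the number tested in brackets, list medians in red and genes of the set of 10 in blue. List medians lie between −0.41 and 0.27, and no list lies as a whole far from 0.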

How the data were processed

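RNA from striatal punches of 10 BACHD mice (5 SPI-24, 5 DMSO) was sequenced from stranded mRNA libraries (single reads, 50 bp). The authors trimmed adapters with cutadapt, mapped reads to GRCm38 with STAR and Ensembl annotation, discarded reads under 30 bp and multi-mapped reads, and counted with htseq-count. The versions they used were not given in the sources used here. Each deposited signal is a count divided by the DESeq2 size factor of its library and rounded to 2 decimals. The table also holds the authors' fold changes and p-values, which were not used. Reads were recovered by dividing each library by the value of 1 read, and 154520 of 154521 values above 0 came out whole within 0.1.

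SPI-24 was compared with DMSO by limma-trend (limma 3.58.1, R 4.3.3) on log2(normalized count + 1), where libraries at 0 weigh heavily for low genes such as Hspa1b, for the 15871 genes whose mean reached 10. Adjusted p-values follow Benjamini-Hochberg over all of them, with a threshold of 0.05. P-values measure the spread between these mice. Alternatives were edgeR 4.0.16 with TMM, DESeq2 1.42.0 and limma-voom on recovered reads, limma without trend, other filters and pseudocounts, the replicate block, Xist or medium spiny marker levels as covariates, and libraries left out. TMM-scaled reads in limma, and Hspa8 summed with its copies, were added after seeing the data.

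The text names all 10 genes, up to 3 genes of smallest p outside them per list, and the 5 genes most correlated with Hspa8 among those with a mean of at least 100. Members and lists were chosen with earlier results of these data known. Drd1, Ddx3y, Hspa1a, Hspa1l, Hspb3, Gm15459 and Chordc1 were named for a result that turns on them. Coordinates are those of GENCODE M21, in which 21201 of 21230 gene identifiers were found.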

Additional observations from a re-analysis of the deposited data

How the results depend on the processing

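The log2 fold change of Hspa8, whose direction was fixed by its choice, ran from 0.62 to 0.84 over the alternatives. Those ends were the fits without DMSO replicate 2 and without DMSO replicate 4. For Hspa8 summed with its copies it was 0.61. Hsph1 and Hspa1b stayed above 0 in all of theirs. With each library left out in turn, the number of the 10 genes above 0, Hspa8 included, ran from 5 to 10, and single genes turned below 0. Across these fits the log2 fold change ran from −0.066 to 0.10 for Hspa4, −0.15 to 0.33 for Hspa4l, −0.059 to 0.21 for Hspa5, −0.082 to 0.12 for Hspa9, −0.16 to 0.33 for Hsp90aa1, −0.064 to 0.13 for Hsp90ab1, 0.09 to 0.32 for Hsph1, 0.49 to 2.85 for Hspa1b and −0.019 to 0.10 for Dnajb1. Dnajb1 also stood at −0.017 with the 2 libraries under 10 M reads left out, where Hspa4l, Hsp90aa1 and Hsph1 stood at 0.37, 0.41 and 0.40. No alternative gave any of the 10 genes an adjusted p under 0.05.

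DESeq2 called 5 genes at an adjusted p under 0.05 where limma called 0, and none of the 5 was among the 10. Genes at an unadjusted p under 0.05 numbered 354 in limma, 172 in edgeR, 671 in DESeq2, 552 in limma-voom and 556 without DMSO replicate 3. The cause was not tested. The replicate numbers do not pair the mice. With a replicate block the number of genes called stayed at 0, the number of the 10 above 0 stayed at 10, and the fold change of Hspa8 was 0.73. Correlations of same-numbered libraries, taken on the deviation of each gene from its group mean, ran from −0.13 to 0.13.

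Multi-mapped reads limit Hspa8, Hspa1b and Hsp90aa1 most. With 5 mice a group, the interval of Hsp90aa1 still allows nearly a 2-fold rise, and that of Hspa1b spans both a fall and a rise of more than 4-fold.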

Other observations

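The cold-inducible RNA-binding protein gene Rbm3 had 257 ± 196 normalized counts in SPI-24 and 458 ± 243 in DMSO (log2 fold change −0.87, 95% interval −2.03 to 0.28). Its relative Cirbp had 756 ± 159 in SPI-24 and 775 ± 348 in DMSO (0.05, 95% interval −0.58 to 0.69). Dnajc7, a J protein that binds both HSP70 and HSP90, had 3357 ± 315 in SPI-24 and 3837 ± 299 in DMSO, a log2 fold change of −0.20 (95% interval −0.49 to 0.10, adjusted p = 0.999, limma). Every SPI-24 library lay below every DMSO library for Dnajc7, as was so for 51 of the 15871 genes tested.

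Log2 levels of Hspa1b and Dnajb1 had a Pearson r of 0.82 over the 10 libraries, with a Spearman rho of 0.56. With 2 of the libraries farthest from the median of Hspa1b left out, the Pearson r was 0.68. The 3 libraries without Hspa1b reads tie as farthest, so a library without Hspa1b reads stayed in. The value of 0.68 therefore cannot show whether the correlation rests on such libraries. The 3 libraries without Hspa1b reads, SPI-24 5, DMSO 1 and DMSO 3, were among the 5 lowest for Dnajb1, and these libraries also differ in depth and tissue.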
